A study of Mus musculus with 165 samples.

Results

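The genes S100a8, S100a9, Lcn2 and Lrg1 were followed in brain and liver of mice at 5 ages. They were 4 of the 55471 gene identifiers in each count table, found by their symbols. They were chosen by their brain counts, which differed between 3 and 28 months for S100a8, S100a9 and Lcn2 and between 15 and 24 months for Lcn2 and Lrg1. Brain differences between ages are therefore given as descriptions, with no test. Liver differences, relations between mice of one age and relations between the tissues were not used by that rule and were tested. The livers came from the same mice, so they are not independent of the brains.

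The mice were untreated males of the inbred strain C57BL/6J/Ukj, kept for ageing and aged 3, 9, 15, 24 or 28 months. Bulk polyadenylated RNA was sequenced from brain (15, 16, 16, 17 and 18 mice in order of age) and liver (16, 16, 16, 17 and 18 mice), and 82 mice gave both tissues. The labels named no brain region and no perfusion. Each library belonged to 1 of 3 preparations, which all held every age. The 165 libraries held 11.5 to 73.4 M counts in brain (median 37.6 M) and 5.82 to 57.5 M in liver (median 32.9 M), and levels are given as CPM, counts scaled to a common library size. The labels' tissues matched their markers: the hepatocyte gene Alb was 18.5 CPM or lower in brains and 14018 CPM or higher in livers, and the neuronal gene Snap25 was 966 CPM or higher in brains and 40.4 CPM or lower in livers. The brain library of the 28-month mouse numbered 15 had the fewest counts of all brains and a TMM scaling factor of 0.761, where the other brains lay between 0.961 and 1.04, and values without it are given beside results that it moved.

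S100a8 and S100a9 encode small calcium-binding proteins that pair to form calprotectin, which makes up much of the cytosolic protein of neutrophils and binds Toll-like receptor 4 and the receptor Ager when released. Lcn2 encodes lipocalin 2, a secreted protein that binds bacterial iron carriers. It is stored in neutrophil granules, and hepatocytes, reactive astrocytes and endothelial cells also make it in inflammation. Lrg1 encodes a secreted leucine-rich glycoprotein that hepatocytes release in the acute phase response and that endothelial cells can make, where it modulates signalling of transforming growth factor beta through endoglin. In the acute phase response, cytokines such as interleukin 6 drive the liver to secrete plasma proteins.

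In the GENCODE M21 annotation of the mouse build GRCm38, S100a8 (ENSMUSG00000056054) lies at chr3:90668978-90670035 on the forward strand and S100a9 (ENSMUSG00000056071) at chr3:90692632-90695721 on the reverse strand, with 22.6 kb between them. Lcn2 (ENSMUSG00000026822) lies at chr2:32384633-32388252 and Lrg1 (ENSMUSG00000037095) at chr17:56119678-56122001, both on the reverse strand. All 4 are protein-coding, and none has exons that overlap those of another gene. The sequence upstream of S100a8, S100a9 and Lrg1 is shown because the first 2 moved together most closely and Lrg1 moved with them least. It was taken from RefSeq on GRCm38.p6, 5′ to 3′ on the strand of the gene, and ends where the first annotated exon begins. Capitals mark matches to the C/EBP pattern TTNNGNAA, bound by factors of neutrophil and liver genes, or to CCAAT, on either strand.
S100a8, chr3:90668821-90668977: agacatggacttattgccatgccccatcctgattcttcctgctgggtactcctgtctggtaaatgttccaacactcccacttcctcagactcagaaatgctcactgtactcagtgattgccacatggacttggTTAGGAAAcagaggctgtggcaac
S100a9, chr3:90695722-90695971: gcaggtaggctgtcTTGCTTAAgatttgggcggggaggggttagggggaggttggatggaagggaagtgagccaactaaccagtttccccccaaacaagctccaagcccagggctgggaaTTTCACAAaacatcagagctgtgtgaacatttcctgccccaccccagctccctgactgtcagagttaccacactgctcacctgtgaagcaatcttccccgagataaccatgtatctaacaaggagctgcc
Lrg1, chr17:56122002-56122196: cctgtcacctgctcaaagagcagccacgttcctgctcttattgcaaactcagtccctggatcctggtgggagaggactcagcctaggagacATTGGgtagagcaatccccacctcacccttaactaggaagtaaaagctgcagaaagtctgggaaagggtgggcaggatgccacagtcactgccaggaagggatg

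Over the whole 250 bases before the RefSeq start site, the C/EBP pattern matched once for S100a8, at 2 places for S100a9, once for Lcn2 and nowhere for Lrg1. Of 32851 mouse promoter windows of that length, 36.8% held it. The box TATAAA lay 30 bases before the RefSeq start of S100a8, inside the first exon of the GENCODE model, and was found in 12.4% of the windows. CCAAT matched once, for Lrg1, against 33.8% of the windows. The STAT pattern TTCNNNGAA and the kappaB motif matched none of the 4, against 7.02% and 3.9% of the windows. The patterns were searched on both strands and none of the matches overlapped. The RefSeq and GENCODE starts of S100a8 lay 93 bases apart. Those of Lcn2 lay 513 bases apart, so its whole window, chr2:32387740-32387989, lies inside the GENCODE gene and none of it is shown. A match describes these windows and not a site in use.

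All 4 genes were scarce in brain, and their medians were higher at 24 and 28 months than at 3. S100a8 had median brain levels of 0.25, 0.422, 0.508, 0.94 and 2.26 CPM at 3, 9, 15, 24 and 28 months. The 3-month brains ran from 0.0289 to 1.17 CPM and the 28-month brains from 0.61 to 11.8, and 17 of 18 old brains exceeded every young one. S100a9 had medians of 0.418, 0.579, 0.719, 1.32 and 3.13 CPM. Its range was 0.131 to 1.85 CPM at 3 months and 0.887 to 14.5 at 28 months, with 14 of 18 old brains above the highest young one. The medians of both calprotectin genes thus stood higher at each successive age, and neighbouring ages overlapped.

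Lcn2 kept a flat median until 15 months and was higher in the 2 oldest groups. Its brain medians were 0.196, 0.182, 0.254, 1.15 and 2.5 CPM. At 3 months the brains ran from 0 to 1.49 CPM, at 24 months from 0.212 to 9.03 and at 28 months from 0.332 to 5.66. At 3 counts or fewer, which is close to the limit of detection at this depth, were 2, 5 and 3 brains at 3, 9 and 15 months and none later. The highest brain level of Lcn2 was thus in a 24-month mouse, while the median was highest at 28 months.

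Between 3 and 28 months Lrg1 differed least of the 4 genes in brain. Its medians were 0.949, 0.681, 0.905, 1.42 and 1.87 CPM, and the highest single levels were 6.39 CPM at 3 months, 13.2 at 24 months and 6.67 at 28 months. Only 1 of 18 brains at 28 months lay above the highest 3-month brain, although 16 of 18 lay above the 3-month median. Per kilobase of exon, the order of the 3-month medians was S100a9 (0.801 CPM per kb), Lrg1 (0.674), S100a8 (0.361) and Lcn2 (0.0747). At 28 months it was S100a9 (6.0), S100a8 (3.25), Lrg1 (1.33) and Lcn2 (0.953), and the ranges of neighbours in both orders overlapped.

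**Figure D1:**
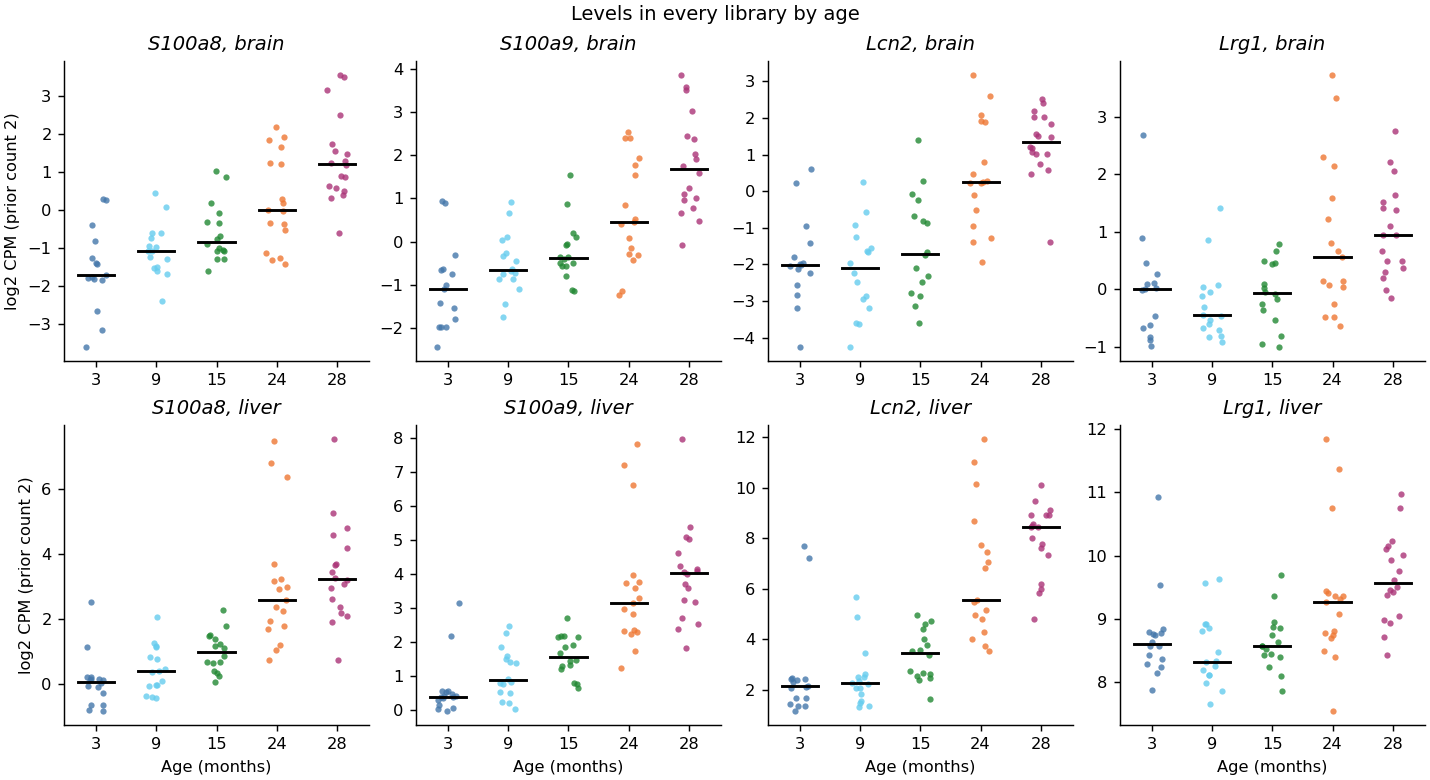
Level of each gene in every library by age, as log2 CPM with a prior count of 2, in brain (top) and liver (bottom). Each point is a mouse and each bar the median. In brain the points of 28 months lie above nearly all of 3 months for S100a8, S100a9 and Lcn2, while single mice stand far above their age in liver at 3, 24 and 28 months.

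The fitted brain difference between 28 and 3 months was 3.16 ± 0.40 (log2 fold change, SE) for S100a8, 3.01 ± 0.39 for S100a9, 3.07 ± 0.48 for Lcn2 and 0.88 ± 0.35 for Lrg1. Of all brain genes, 28.3% passed the test in that comparison, which had helped to choose 3 of the 4 genes. Without the 28-month mouse 15 the values were 2.98, 2.89, 3.09 and 0.81. From 15 to 24 months the difference was 1.13 ± 0.37, 1.21 ± 0.37, 2.14 ± 0.46 and 1.61 ± 0.35, in a comparison with 0.732% of genes called (137 genes, and 294 without the 28-month mouse 15). From 24 to 28 months it was 1.15 ± 0.34 for S100a8 and 1.11 ± 0.33 for S100a9, but 0.35 ± 0.40 for Lcn2 and -0.37 ± 0.33 for Lrg1. Within preparations 1, 2 and 3, the 28-against-3 difference of Lrg1 was 0.086, 1.41 and 1.46, and that of Lcn2 was 2.96, 2.12 and 4.48.

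In liver all 4 genes rose between 3 and 28 months. The question is whether genes picked in brain also changed in an organ that did not pick them. S100a8 had liver medians of 0.992, 1.26, 1.93, 5.9 and 9.44 CPM at the 5 ages, and S100a9 had 1.25, 1.77, 2.91, 8.79 and 16.2 CPM. At 3 months S100a8 ran from 0.503 to 5.76 CPM, at 24 months from 1.63 to 179 and at 28 months from 1.61 to 188. The highest old liver exceeded the lowest 110-fold at 24 months and 117-fold at 28 months for S100a8. Of the livers at 28 months, 13 of 18 lay above the highest at 3 months for S100a8 and 14 of 18 for S100a9.

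Lcn2 in liver had medians of 4.3, 4.69, 10.9, 46.5 and 351 CPM. Its range was 2.15 to 208 CPM at 3 months, 2.38 to 50.5 at 9, 3.07 to 31.2 at 15, 11.6 to 3956 at 24 and 27.5 to 1115 at 28. Of the 28-month livers, 12 of 18 were above every 3-month liver and 18 of 18 were above the 3-month median. The 3-month group held 2 livers, of the mice numbered 12 and 15, at 208 and 149 CPM, far above the others of that age.

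Lrg1 was abundant in liver at every age, with medians of 390, 322, 383, 616 and 759 CPM. It ran from 237 to 1942 CPM at 3 months, 187 to 3686 at 24 and 345 to 2004 at 28. Of the livers at 28 months, 1 of 18 exceeded the highest at 3 months, and 17 of 18 exceeded the 3-month median. The top of the 3-month range was set by mice 15 and 12 (1942 and 744 CPM), and the next liver of that age had 459 CPM. Per kilobase of exon the order in liver at 28 months was Lrg1 (539 CPM per kb), Lcn2 (134), S100a9 (31.1) and S100a8 (13.6), and the ranges of neighbours in this order overlapped.

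With edgeR's quasi-likelihood test and Benjamini-Hochberg adjustment over all 15579 liver genes, the log2 fold change at 28 against 3 months was 3.67 ± 0.56 for S100a8 (adjusted p = 3.9e-08) and 3.52 ± 0.53 for S100a9 (adjusted p = 3e-08). It was 4.06 ± 0.74 for Lcn2 (adjusted p = 2.6e-06) and 0.87 ± 0.27 for Lrg1 (adjusted p = 0.0034). In this comparison 31.9% of all liver genes were called higher, so passing the test was common, and the median log2 fold change of all genes was 0.011. At 24 against 3 months, where 25% were called higher, the log2 fold changes were 3.93, 3.71, 4.33 and 0.87, with edgeR adjusted p of at most 0.0051. At 28 against 3 months, leaving out each liver in turn kept the calls of all 4 genes. There the value for Lcn2 ran from 3.76 without the 28-month mouse 14 to 5.33 without the 3-month mouse 12. In preparations 1, 2 and 3 alone the difference was 3.4, 2.38 and 5.56 for S100a8, 3.08, 2.37 and 5.51 for S100a9, 3.23, 2.98 and 6.7 for Lcn2, and 0.29, 1.06 and 1.25 for Lrg1. At 28 against 3 months and at 24 against 3 months alike, Lcn2 missed the threshold in preparation 2 alone and Lrg1 in preparations 1 and 2 alone.

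Between successive ages, the 4 genes rose in liver from 15 to 24 months. In that interval the log2 fold change was 3.17 ± 0.54 for S100a8 (adjusted p = 8.2e-06), 2.94 ± 0.51 for S100a9 (adjusted p = 1.1e-05), 5.26 ± 0.77 for Lcn2 (adjusted p = 4.9e-07) and 1.07 ± 0.27 for Lrg1 (adjusted p = 0.0013), with edgeR. Higher calls made up 21.6% of all liver genes. Without the 24-month mouse 5, the value for Lcn2 was 4.62, and it stayed called. The call for Lrg1 was lost with limma voom and quality weights, where the log2 fold change was 0.40 (adjusted p = 0.079), and in each preparation alone. In preparation 1 alone, S100a8, S100a9 and Lcn2 gave 2.96, 2.7 and 5.64 without passing, the lowest adjusted p being 0.144.

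EdgeR, DESeq2 and limma voom called none of the 4 genes between 3, 9 and 15 months in liver, where 4.69% of genes were called at 9 against 3, 7.32% at 15 against 3 and 0.0514% at 15 against 9 months. S100a8 and S100a9 gave 0.76 ± 0.55 and 0.77 ± 0.51 at 15 against 3 months (edgeR adjusted p = 0.46 and 0.41). At an unadjusted p under 0.05 was 1 of these 12 values, that of Lcn2 at 9 against 3 months (-1.60 ± 0.69, p = 0.023, edgeR adjusted p = 0.17). At 15 against 3 months Lcn2 gave -0.92 ± 0.67 (adjusted p = 0.46), although its median was 10.9 CPM at 15 months and 4.3 at 3, and its 3-month mean, which includes the mice numbered 12 and 15, was 25.7 CPM.

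Between 24 and 28 months the means and the medians in liver parted. Fitted differences were -0.26 ± 0.45, -0.19 ± 0.43, -0.28 ± 0.62 and -0.00 ± 0.26 for S100a8, S100a9, Lcn2 and Lrg1 (edgeR adjusted p from 0.744 to 0.999), in a comparison with 15.3% of genes called. The medians were all higher at 28 months, and for Lcn2 17 of 18 livers at 28 months lay above the 24-month median. With limma voom and quality weights, which give less weight to libraries that deviate, all 4 differences were positive, and Lcn2 (1.97, adjusted p = 0.0051) and Lrg1 (0.50, adjusted p = 0.048) were called. The sign in this interval also turned for some of the 4 genes in single preparations, with the replicate block and, near 0, for Lrg1 with RLE and DESeq2, so no direction held across the fits.

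**Figure D2:**
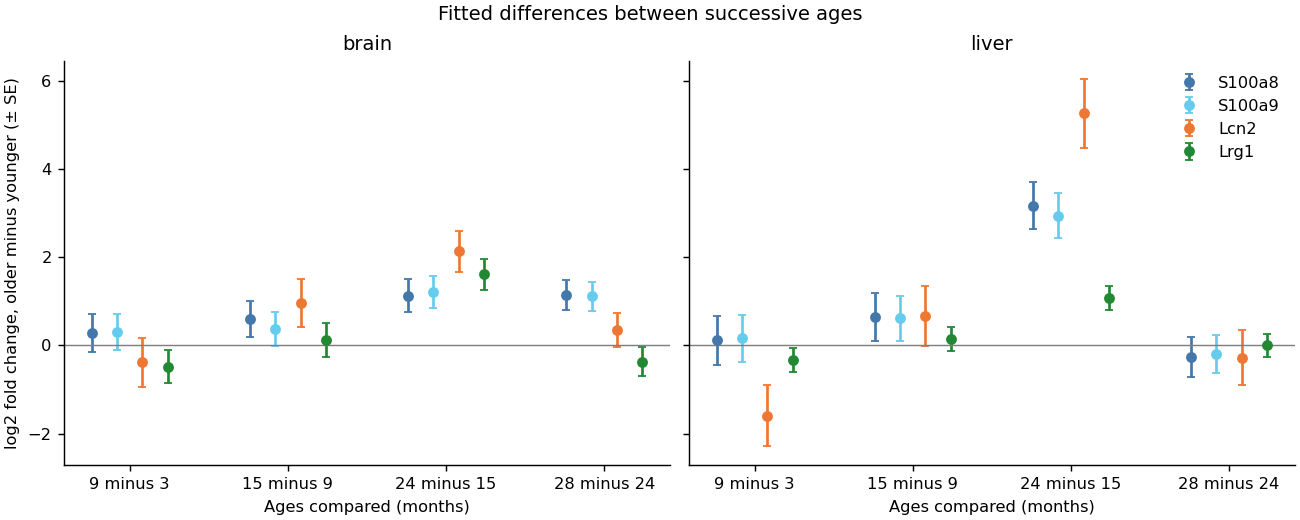
Fitted log2 fold change between successive ages (older minus younger) with its standard error, in brain (left) and liver (right), for the 4 genes. The interval from 15 to 24 months holds the largest fitted difference of every gene in liver, with Lcn2 at 5.26, while the brain values of S100a8 and S100a9 are of like size in the last 2 intervals.

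The 4 highest livers of Lcn2 at 24 months were those of the mice numbered 5, 6, 8 and 10. Lcn2 was 3956, 1133, 2060 and 414 CPM in them in liver, and 4.18, 3.71, 5.97 and 9.03 CPM in brain. These mice filled the 4 highest places of 17 in both tissues. S100a9 in liver was 99.2, 147, 15.6 and 228 CPM, so mouse 8 had high Lcn2 and Lrg1 (2641 CPM) with S100a9 far below that of mouse 6. In mouse 10 the order was turned: S100a8 and S100a9 were the highest of its age in liver, at 179 and 228 CPM, while Lrg1 was 662 CPM, close to the group's median of 616.

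Saa1, an acute phase protein of the liver, and Ngp, a granule protein of developing neutrophils, divided the same mice. Liver Saa1 was 14175, 9145 and 13563 CPM in mice 5, 6 and 8, and 218 CPM in mouse 10, against a 24-month median of 128. Liver Ngp was 30.9, 65.3 and 108 CPM in mice 5, 6 and 10, and 4.26 CPM in mouse 8, against a median of 0.611. At 3 months, mice 12 and 15 had liver Saa1 of 1592 and 2506 CPM against a median of 44. Mouse 15 also held the highest Lrg1 of its age in both tissues, at 6.39 CPM in brain and 1942 CPM in liver. The health of these mice was not given in the sources used here, and its part in these values was not tested.

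Across the 82 mice with both tissues, with means of age and preparation removed, Lcn2 and Lrg1 varied together in brain and liver. The within-mouse correlation was r = 0.665 and rho = 0.637 for Lcn2 and r = 0.698 and rho = 0.572 for Lrg1. All 4 permutation p were 1e-05, the smallest that 100000 two-sided permutations within age can give. Over all 14035 genes kept in both tissues, the adjusted p was 3.9e-08 for Lcn2 and 2.5e-09 for Lrg1, and 1.45% of genes were called positive. Without the 2 mice farthest from the brain median, r was 0.656 and 0.596. In preparations 1, 2 and 3 it was 0.648, 0.737 and 0.616 for Lcn2, and 0.828, 0.736 and 0.473 for Lrg1.

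The calprotectin genes had smaller correlations between the organs. S100a8 gave r = 0.305 (permutation p = 0.0154) and rho = 0.237 (p = 0.0411), and S100a9 gave r = 0.320 (permutation p = 0.0112) and rho = 0.233 (p = 0.0444). Over all genes neither passed, with adjusted p of 0.16 and 0.124. Without the 28-month mouse 15 both passed: r was 0.410 for S100a8 (permutation p = 0.00084, adjusted p = 0.010) and 0.396 for S100a9 (permutation p = 0.00157, adjusted p = 0.015), with 2.81% of genes called positive. The call thus turned on 1 mouse. Without the 2 farthest mice r was 0.348 and 0.277. Within preparations 1, 2 and 3 it was 0.289, 0.011 and 0.498 for S100a8, and 0.348, -0.0054 and 0.476 for S100a9, so the relation did not hold in preparation 2. Whether the calprotectin genes and the other pair differ in this correlation was not tested.

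By age, S100a8 gave r = 0.29, 0.43, 0.29, 0.72 and -0.13 at 3, 9, 15, 24 and 28 months, and S100a9 gave 0.31, 0.21, 0.40, 0.66 and -0.094. At 28 months (18 mice) rho was 0.069 for S100a8 and -0.067 for S100a9. Without mouse 15, r at 28 months was 0.19 and 0.13 and rho 0.12 and 0.071, so the negative r rested on that mouse. The 28-month mice with the most brain calprotectin were numbers 2, 15 and 8. Their brain S100a8 was 11.8, 11.3 and 8.94 CPM, while their liver S100a8 was 8.39, 1.61 and 4.49 CPM, which ranked 11th, 18th and 15th of 18. Each of these mice thus had more S100a8 in brain than in liver. Lrg1 gave r = 0.87, 0.58, 0.29, 0.75 and 0.72 at the 5 ages, with 0.85 at 28 months without mouse 15, and Lcn2 gave 0.84, 0.62, 0.62, 0.78 and 0.46. At 28 months, mouse 14 was highest for Lrg1 in both organs (6.67 and 2004 CPM). At 15 months the r of S100a9 was above that of Lrg1. Of 82 mice, liver exceeded brain in 82 for Lcn2 and Lrg1 and in 78 for S100a8 and for S100a9, with median ratios of 45.9, 430, 3.94 and 4.01.

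**Figure D3:**
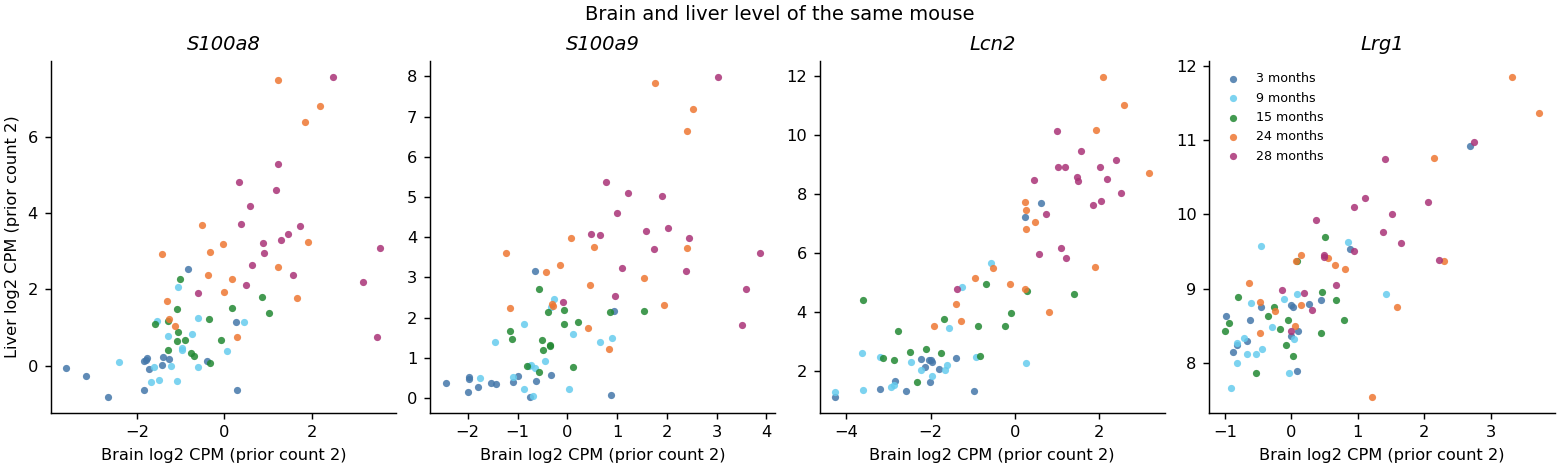
Brain level against liver level of each gene in the same mouse, both as log2 CPM with a prior count of 2, coloured by age. For Lrg1 the highest mice of 3, 24 and 28 months lie along one band, while for S100a8 and S100a9 some 28-month mice (purple) lie far to the right with low liver values, among them mouse 15 with 11.3 CPM of S100a8 in brain and 1.61 in liver.

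Within a tissue, S100a8 and S100a9 moved almost as one. Their correlation over mice, with age and preparation removed, was r = 0.912 (rho = 0.882) in 82 brains and r = 0.974 (rho = 0.914) in 83 livers. Each permutation p was 1e-05, the smallest that could be given, and in both tissues each gene was the other's closest match among all genes kept. Lcn2 and Lrg1 were the next pair, with r = 0.641 (rho = 0.599) in brain and 0.840 (rho = 0.755) in liver, at the same permutation p. In brain, Lrg1 ranked 2nd among 18710 genes for Lcn2.

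Across the 2 pairs the tie was weaker. In liver, S100a8 and S100a9 correlated with Lcn2 at r = 0.731 and 0.735 and with Lrg1 at r = 0.480 and 0.515, with limma adjusted p over all genes of at most 5.7e-05. In brain the values with Lcn2 were r = 0.408 and 0.449 (limma adjusted p = 0.074 and 0.028), and with Lrg1 r = 0.262 and 0.278 (adjusted p = 0.12 and 0.23). The brain relation of S100a8 with Lrg1 was r = 0.185 without the 2 farthest mice, 0.226 without the 28-month mouse 15, and -0.059 in preparation 2. In all, 12 pairs were compared within the tissues and 4 genes between them, and the differences among these correlations were not tested.

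In brain, the genes most like S100a8 and S100a9 included genes of blood cells. At a mean of at least 1 CPM, S100a8 was followed by the haemoglobin genes Hba-a1 (r = 0.505), Hbb-bt (0.497) and Hbb-bs (0.493) and by Anxa1 (0.493), a regulator of leukocyte migration. S100a9 was followed by Anxa1 (0.558), Lyz2 (lysozyme of myeloid cells, 0.540), 1700016K19Rik (0.524) and Hba-a1 (0.509). Below 1 CPM, neutrophil granule genes came closer still: for S100a8 and S100a9, Ngp gave 0.802 and 0.834 and ranked 2nd in both. In all, 25 genes were called positive with S100a8 (0.134% of 18710) and 26 with S100a9 (0.139%). Without the 28-month mouse 15 they were 16 and 27, and Hba-a1 gave 0.443 and 0.465 (limma adjusted p = 0.048 and 0.015) and Hbb-bs 0.440 and 0.460 (adjusted p = 0.0501 and 0.017).

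Lcn2 and Lrg1 in brain had other neighbours. Lcn2 was most like Tmem252 (r = 0.651), Lrg1 (0.641), Tgm2 (a transglutaminase, 0.571), Serpinb6b (0.553) and Ly6c1 (0.539). Lrg1 was most like Ly6c1 (0.694), a surface protein of brain endothelium, Tgm2 (0.664), Tmem252 (0.657), Grrp1 (0.646) and Lcn2 (0.641). Positive calls numbered 39 for Lcn2 (0.208%) and 367 for Lrg1 (1.96%), and 86 and 403 without the 28-month mouse 15. Genes with a mean under 1 CPM, which include neutrophil granule genes, were not eligible for these places. Outside these places, Chil3 was called with Lrg1 (r = 0.454, limma adjusted p = 0.0062), as was the haemoglobin gene Hbb-bs (0.386, adjusted p = 0.028).

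In liver the closest matches of calprotectin were genes of neutrophils and myeloid cells, and those of the other pair were mostly genes of plasma proteins. S100a8 was followed after S100a9 by Cd177 (r = 0.910), a neutrophil surface protein, Ltf (lactoferrin, 0.894), Ngp (0.891) and Slfn4 (0.878), and S100a9 likewise by Cd177 (0.884), Slfn4 (0.875), Chil3 (0.875) and Ltf (0.865). Lcn2 was most like the acute phase genes Orm2 (0.948), Hpx (hemopexin, 0.938), Saa1 (0.916) and Saa2 (0.907), and then Prtn3 (0.893), a granule protease of neutrophil precursors. Counting of near-identical Orm and Saa genes can be split, so their separate values are uncertain. Lrg1 was most like Hp (haptoglobin, 0.914), Itih3 (0.904), Dnajc12 (0.896), Qsox1 (0.894) and Fgb (fibrinogen beta chain, 0.891). Positive calls were far more common than in brain, at 21.6% of liver genes for S100a8, 20.5% for S100a9, 15.3% for Lcn2 and 11.2% for Lrg1.

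The brain level of Lcn2 and Lrg1 went with acute phase genes of the liver, while no liver gene passed with that of calprotectin. Against brain Lcn2, 1361 liver genes were called positive (8.74%) and 1169 negative (7.5%) by limma, led by Prtn3 (r = 0.665), Lcn2 itself (0.665) and Fgl1 (0.653), a secreted liver protein. Against brain Lrg1 there were 2265 positive (14.5%) and 2015 negative (12.9%), led by Sucnr1 (the succinate receptor, -0.753), Alpk1 (0.751) and Osmr (the oncostatin M receptor, 0.741). Without the 28-month mouse 15 the positive and negative counts were 2637 and 2221 for Lrg1, and 1368 and 1170 for Lcn2. Against brain S100a8 and S100a9, limma called 0 liver genes, with 455 and 509 at an unadjusted p under 0.05, and 0 again without the 28-month mouse 15, with 668 and 691. Of 25 liver acute phase genes, 23 were positive with brain Lcn2 (median r = 0.51), 24 with brain Lrg1 (0.65) and 0 with brain S100a8 or S100a9 (0.27 and 0.29). At an unadjusted p under 0.05 they numbered 24, 24, 21 and 21 of 25 in the same order, all of them positive, and the difference between the 4 genes was not tested. Of 16 mature and 8 precursor neutrophil genes of the liver, 14 and 7 were positive with brain Lcn2 (median r = 0.44 and 0.45), and 13 and 7 with brain Lrg1 (0.36 and 0.42). With brain S100a8 and S100a9 limma called 0 of these 24, with 6 and 7 of 16 mature genes and 7 of 8 precursor genes for each at an unadjusted p under 0.05. Only 10 of the 16 mature and 2 of the 8 precursor genes would have passed the filter on low counts in the 3- to 15-month livers alone. The others were tested only through the old livers, so these counts and medians are no support. Of 8 liver monocyte genes, 7 were positive with brain Lcn2, 6 with brain Lrg1 and 0 with brain S100a8 or S100a9, with 3 at an unadjusted limma p under 0.05 for each of the last pair. The same limit holds for these, as 6 of the 8 would have passed the filter without the old livers. Of 21 liver macrophage genes, 15 were positive with brain Lcn2, 0 with brain Lrg1 (7 at an unadjusted p under 0.05) and 0 with brain S100a8 or S100a9 (0 for each). Without the 28-month mouse 15, 15 were positive with brain Lcn2, 6 with brain Lrg1 and 0 with brain S100a8 or S100a9, so the 0 for Lrg1 rested on that mouse. The median r over all liver genes was 0.026 for Lcn2, 0.045 for Lrg1, 0.0058 for S100a8 and 0.0038 for S100a9.

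In the other direction few brain genes went with a liver level when all brain libraries were kept. The counts that follow include the brain of the 28-month mouse 15. Whether they change without it was not tested. Liver Lcn2 had 34 positive brain genes (0.182%), of which Tmem252 (r = 0.705), Lrg1 (0.701) and Lcn2 (0.665) had the smallest p. Liver Lrg1 had 116 (0.62%), led by Lrg1 (0.698), Tmem252 (0.690) and Acer2 (0.654), an alkaline ceramidase. Liver S100a8 and S100a9 had 16 (0.0855%) and 11 (0.0588%), led for both by AC091309.4, Ch25h, which makes 25-hydroxycholesterol, and Tmem252, with r between 0.570 and 0.593. Tmem252 was thus among the top brain genes for all 4 liver levels.

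Gene lists of cell types were set beside these levels. Of 15 neutrophil precursor genes, 5 could be tested in brain and 4 rose between 3 and 28 months, against 16.3% of all brain genes called higher and 12% lower: Ngp (2.71 ± 0.46), Camp (a cathelicidin, 2.70 ± 0.51), Chil3 (2.68 ± 0.38) and Ltf (2.30 ± 0.41). Prtn3 gave 0.19 ± 0.14 (edgeR adjusted p = 0.33). Of the 5, 3 would have passed the filter on low counts in the 3- to 15-month brains alone, and the others were tested only through the old brains, so the count and the median of this list are no support. Their levels were low, with Ngp at medians of 0.146 and 1.16 CPM. The same 4 were called positive with brain S100a8 and S100a9, where 0.134% and 0.139% of all brain genes were. The median r of the list was 0.73 and 0.76, against -0.037 and -0.025 over all brain genes. With Lcn2 and Lrg1 it was 0.23 and 0.08, against 0.0036 and -0.02, and 0 and 1 of the 5 were called by limma, with 3 and 1 at an unadjusted p under 0.05. Leaving out the 28-month mouse 15 gave 1 call with each. The median log2 fold change of the list was 2.68, against 0.0083 over all brain genes. Brain genes of mature neutrophils rose in 6 of 9 tested (median 0.41), among them Retnlg (3.29 ± 0.45) and Csf3r, the receptor for a growth factor of granulocytes (0.41 ± 0.07). Of the 9 tested, 5 would have passed the filter without the old brains, so this count and median are no support either. Among mice, 1 of these 9 was called with S100a8 and 1 with S100a9 (median r = 0.22 and 0.28), with 4 and 7 at an unadjusted p under 0.05. Retnlg gave r = 0.731 and 0.706, and Csf3r 0.174 and 0.250.

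Of 8 red blood cell genes tested in brain, 4 rose between 3 and 28 months, against 16.3% of all genes: Slc4a1 (1.24 ± 0.33), Hba-a1 (1.19 ± 0.33), Hbb-bs (1.07 ± 0.31) and Alas2 (0.90 ± 0.30), with edgeR adjusted p from 0.003 to 0.018. Hba-a1 ran from 7.06 to 52.9 CPM at 3 months and from 8.23 to 239 CPM at 28 months, where the next highest brain after mouse 15 had 61.0 CPM. Among mice, 6 of 8 were positive with S100a8 and with S100a9 (median r = 0.48 and 0.50), 0 of 8 with Lcn2 and 3 of 8 with Lrg1 (0.33 and 0.34), and with each of these 5 of 8 had an unadjusted limma p under 0.05. Of all brain genes, 0.134%, 0.139%, 0.208% and 1.96% were positive with S100a8, S100a9, Lcn2 and Lrg1. Without the 28-month mouse 15, 4 of 8 were positive with S100a8, 5 with S100a9 (0.44 and 0.46), 1 with Lcn2 and 3 with Lrg1. The median log2 fold change of the 8 was 0.98, and 0.71 without that mouse. The part of blood in the brain levels of the 4 genes was not tested. Brain mouse 15 of 28 months had the highest Hba-a1 of its age, at 239 CPM against a median of 29.8, with Ngp at 1.38 CPM. Brain mouse 2, the highest in S100a8, had Hba-a1 of 56.8 CPM and the highest Ngp, at 7.82 CPM.

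The choroid plexus, a tissue that can be taken or lost with the brain, varied between brains, as its 12 genes summed to 55.7 to 6798 CPM at 3 months and 54.1 to 5614 CPM at 28 months. By age, edgeR and DESeq2 called 0 of the 12, and 1 had an unadjusted p under 0.05 in edgeR (median log2 fold change -0.42). Among mice, 8 of 12 were positive with brain Lrg1 (median r = 0.37), and 12 of 12 without the 28-month mouse 15 (0.39). Of all brain genes, 1.96% were positive with brain Lrg1, and their median r was -0.02. For S100a8, S100a9 and Lcn2 limma called 0 of 12, with 3, 4 and 12 at an unadjusted p under 0.05 and a median r of 0.18, 0.17 and 0.29. The part of the choroid plexus in the levels of Lrg1 and Lcn2 was not tested. Of 12 meningeal genes, 4 fell with age, against 12% of all genes, Col3a1 (-1.27 ± 0.22), Col1a1 (-0.65 ± 0.13), Col1a2 (-0.78 ± 0.16) and Lum (-0.47 ± 0.16), and limma called 0 of 12 with each of the 4 genes, with 3, 3, 8 and 4 at an unadjusted p under 0.05 in the order S100a8, S100a9, Lcn2, Lrg1. The median log2 fold change of the list was -0.21. In bulk tissue, more cells of a type and more RNA per cell cannot be told apart.

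Genes of resident brain cells were also called, where 16.3% of all brain genes were higher and 12% lower. Of 17 microglia and macrophage genes tested, 15 rose, led by Cd68 (0.71 ± 0.06), Lyz2 (1.42 ± 0.12) and Ctss (0.62 ± 0.07), with a median of 0.58 for the list. Among mice, 1 of 17 was called with S100a8 and 1 with S100a9 (median r = 0.24 and 0.27), and 9 of 17 had an unadjusted limma p under 0.05 with each. Without the 28-month mouse 15, 0 and 1 were called (0.17 and 0.22), with 1 and 8 positive at an unadjusted p under 0.05. Of 22 reactive astrocyte genes, 11 rose (14 without the 28-month mouse 15) and 1 fell, with Gfap, the astrocyte filament protein, at 0.75 ± 0.08 and Aspg at 1.05 ± 0.11 and a median of 0.44. Among mice, 1 of 22 was called with Lcn2 and 5 of 22 with Lrg1, and 3 and 7 without the 28-month mouse 15. Of 18 endothelial genes, 6 rose and 4 fell, with a median of 0.053 that was -0.013 without the 28-month mouse 15: Plvap rose by 0.71 ± 0.11 and Ly6c1 by 0.39 ± 0.09, while Tie1 fell by 0.40 ± 0.08 and Tek by 0.43 ± 0.10. Among mice, 0 of the 18 were called with S100a8 or S100a9, 2 with Lcn2 and 4 with Lrg1 (median r = 0.11 and 0.15 for Lcn2 and Lrg1). Without the 28-month mouse 15, 3 were called with Lcn2 and 3 with Lrg1. Of all brain genes, 0.134%, 0.139%, 0.208% and 1.96% were called positive with S100a8, S100a9, Lcn2 and Lrg1. Without the old brains, 21 of the 22 astrocyte and 18 of the 18 endothelial genes would have passed the filter. Of 6 monocyte genes, 3 rose, with a median of 0.77, and 3 of the 6 would have passed the filter without the old brains.

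In liver nearly all tested genes of the neutrophil lists rose, in a comparison with 31.9% of genes called higher and 30% lower. Of the mature list, 16 of 16 tested were higher at 28 months (median log2 fold change 2.02), such as Cxcr2 (2.64 ± 0.36), Csf3r (1.73 ± 0.23) and Mmp9 (2.07 ± 0.26). Of the mature genes, 10 of 16 would have passed the filter on low counts in the 3- to 15-month livers alone, and of the precursor genes 2 of 8, so the others were tested only through the old livers and these counts and medians are no support. Of the precursor list, 7 of 8 were higher (median 4.75), Camp by 7.06 ± 1.17, Mpo (myeloperoxidase) by 5.84 ± 1.02 and Ngp by 5.54 ± 0.97, from 3-month medians at or under 0.065 CPM. The 28-month median of Ngp was 0.862 CPM and its mean 10.1, with 1 liver, of mouse 3, at 128 CPM and the others at 10.9 or lower. Without that liver the mean was 3.15 CPM, Ngp gave 4.54 ± 0.86 and Mpo 4.82 ± 0.92, Camp was too low to be tested, and 6 of 7 genes were called higher (median 4.07). Of other myeloid cells, 8 of 8 monocyte genes (median 1.97) and 19 of 21 macrophage genes (1.45) were higher in liver. In the 3- to 15-month livers alone, 6 of the 8 monocyte and 21 of the 21 macrophage genes would have passed the filter. The monocyte count and median are thus no support either. Of 7 red blood cell genes in liver, 4 rose and 2 fell (median 0.45), and 2 rose and 2 fell without the 28-month liver 3. Among mice, 6 of these 7 were positive with liver S100a8 (median r = 0.39), 5 with S100a9 (0.37), and 1 was positive and 1 negative with each of Lcn2 (0.22) and Lrg1 (0.16). Of the monocyte and macrophage genes, 7 of 8 and 19 of 21 were positive with liver S100a8 (median r = 0.70 and 0.57) and as many with S100a9 (0.67 and 0.53), 8 and 17 with Lcn2 (0.52 and 0.41), and 4 and 0 with Lrg1 (0.28 and 0.11), none of the 21 at an unadjusted limma p under 0.05 with Lrg1. The defining marker Ly6g was too low to be tested in either tissue. The summed precursor level ran from 5.98 to 27.5 CPM at 3 months and 11.5 to 458 CPM at 28 months. Of the precursor genes, 7 of 8 were positive with every one of the 4 genes, with median r of 0.87, 0.84, 0.62 and 0.37 in the order S100a8, S100a9, Lcn2, Lrg1, against 0.017, 0.018, 0.016 and -0.0044 over all liver genes. Of the 16 mature genes, 15, 15, 16 and 9 were positive in the same order, where 21.6%, 20.5%, 15.3% and 11.2% of all liver genes were. The limit of the filter on low counts also holds for the precursor, mature and monocyte counts and medians among mice.

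Liver acute phase genes rose in 19 of 25 tested, with none lower (median log2 fold change 1.09), where 31.9% of all liver genes were called higher. Without the 28-month liver 3, 17 of 25 rose and none fell (median 1.08). Orm3 rose by 4.85 ± 0.50, Apcs (serum amyloid P) by 2.06 ± 0.32, Hpx by 1.21 ± 0.19 and Hp by 1.14 ± 0.24. Saa1, Saa2 and Saa3 rose by 1.84 ± 0.83, 2.26 ± 0.96 and 0.82 ± 0.29 (edgeR adjusted p = 0.049, 0.035 and 0.013), with wide spread. With liver Lcn2 and Lrg1, 24 of 25 were positive for each, at median r of 0.78 and 0.81, and with S100a8 and S100a9 22 and 24 of 25 were positive and 1 negative for each, at 0.51 and 0.54. Of all liver genes, 15.3%, 11.2%, 21.6% and 20.5% were positive with liver Lcn2, Lrg1, S100a8 and S100a9. In brain, where 16.3% of all genes were called higher, 6 of 10 acute phase genes rose (median 0.56), among them Hp (2.16 ± 0.32), C3 (complement, 1.70 ± 0.28) and Itih3 (0.67 ± 0.09). Without the 28-month mouse 15, 7 of 10 rose (median 0.45). Of the 10, 9 would have passed the filter on low counts in the 3- to 15-month brains alone, and the other was tested only through the old brains.

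**Figure D4:**
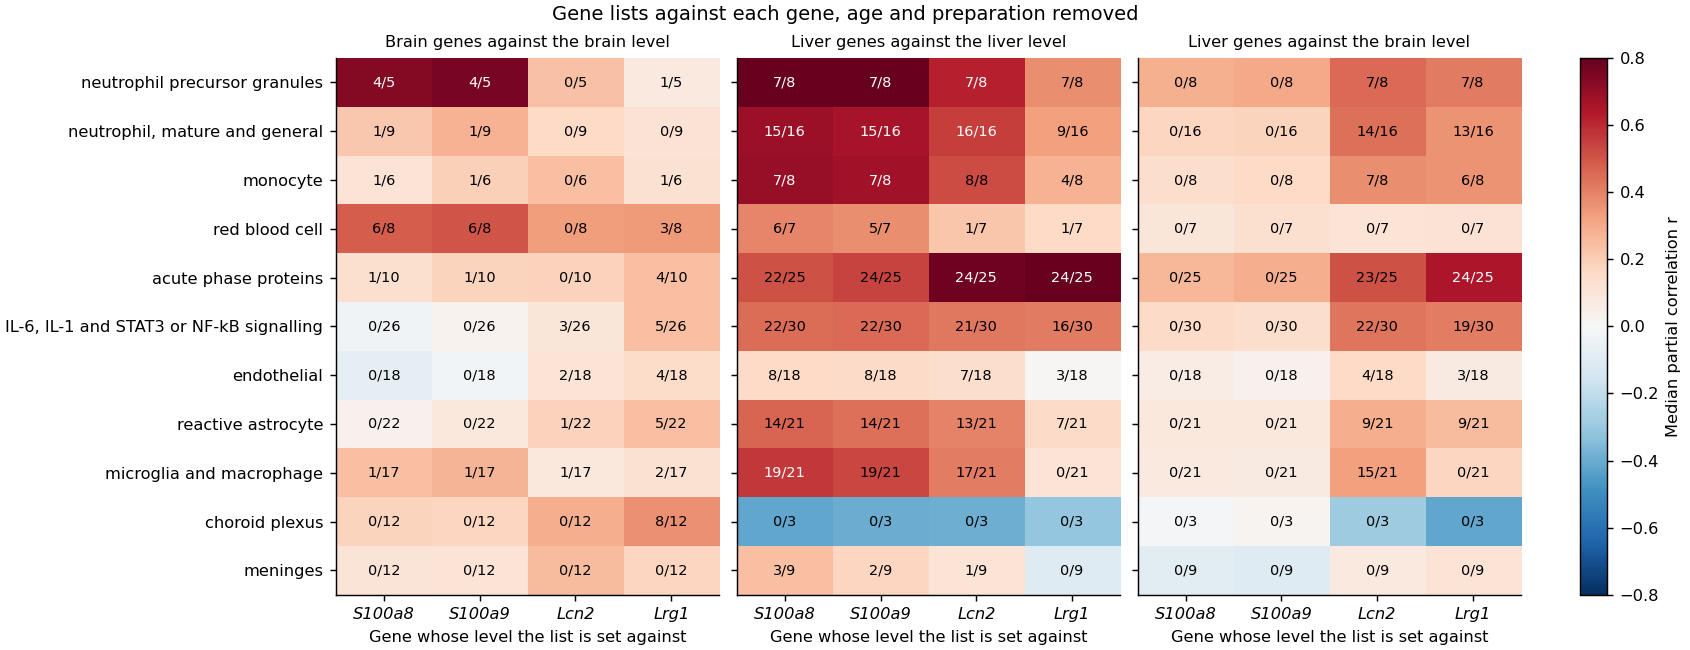
Correlation of gene lists with each of the 4 genes, age and preparation removed: brain genes against brain level, liver genes against liver level, and liver genes against brain level. Colour is the median r over the tested genes of the list and the fraction gives genes called positive (limma adjusted p under 0.05) over genes tested. In the right panel S100a8 and S100a9 have 0 of 25 acute phase genes while Lcn2 and Lrg1 have 23 and 24, although 21 of 25 had an unadjusted limma p under 0.05 with S100a8 and with S100a9.

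Of 19 receptors and partners of these proteins, 4 rose and 1 fell in brain between 3 and 28 months (median 0.035), where 16.3% of all genes were called higher and 12% lower. With the 28-month mouse 15 left out, 6 rose and 1 fell. Cd14, a co-receptor of Toll-like receptor 4, rose by 0.52 ± 0.10 and Ager by 0.59 ± 0.15, while Tlr4 gave 0.29 ± 0.12 (edgeR adjusted p = 0.052). Slc22a17, a receptor for lipocalin 2 that is abundant in brain, had means of 670 ± 66.2 and 662 ± 93.7 CPM (SD, n = 15 and 18) and a log2 fold change of -0.02 ± 0.06, and Eng, endoglin, gave 0.14 ± 0.08 (adjusted p = 0.84 and 0.15). In liver, 11 of 18 rose and 1 fell (median 0.36), against 31.9% and 30% of all liver genes: Cd14 rose by 1.59 ± 0.30, Tlr4 by 1.07 ± 0.21 and Ager by 1.26 ± 0.21, and Lrp2, which takes up lipocalin 2, fell by 1.76 ± 0.33.

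Upstream signalling genes of interleukin 6, interleukin 1, STAT3 and NF-kappaB rose in 10 of 26 and fell in 1 of 26 in brain (median 0.17), against the same 16.3% and 12% of all genes, or 13 and 1 without the 28-month mouse 15, with Icam1 at 0.86 ± 0.14 and Osmr at 0.59 ± 0.11. In liver 21 of 30 rose and 6 fell (median 0.68), against 31.9% and 30% of all genes: Nfkbiz rose by 1.19 ± 0.14 and Stat3 by 0.73 ± 0.12, and Lifr, a receptor subunit, fell by 1.01 ± 0.13. Of the other S100 genes, 7 of 9 rose in brain (median 0.55), such as S100a6 (0.96 ± 0.18) and S100a4 (1.06 ± 0.24), and 4 of 9 without the 28-month mouse 15 (median 0.22). In liver 4 of 8 rose and 2 fell (median 0.20), S100a6 by 2.44 ± 0.30 upwards and S100a10 by 0.69 ± 0.14 downwards. In the 3- to 15-month libraries alone, 8 of the 9 brain and 7 of the 8 liver S100 genes would have passed the filter on low counts. For the signalling genes these were 26 of 26 in brain and 29 of 30 in liver, and the others were tested only through the old libraries.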

How the data were processed

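Bulk RNA was sequenced as paired reads of 100 bases from a stranded TruSeq kit with polyA enrichment, after QIAzol and chloroform extraction, per the labels' protocols. The authors deposited raw counts per gene, 1 table per tissue and 1 column per library. Per the submitters' processing notes, the tools were cutadapt 2.8, HISAT2 2.1.0, SAMtools 1.9 and featureCounts of Subread 2.0.1, with the builds GRCm38.p6 and mm10. The annotation release, the strand setting and the handling of reads that map to several genes are not given in the sources used here. Symbols matched 55144 of 55471 identifiers.

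In R 4.3.3, edgeR 4.0.16 kept 18711 brain and 15579 liver genes (filterByExpr by age), scaled them by TMM and fitted age and preparation over all libraries of a tissue with the two-sided quasi-likelihood test, Benjamini-Hochberg adjusted over all genes kept and called under 0.05. SE was the log2 fold change divided by the root of F. Levels are CPM with TMM scaling. Correlations used log2 CPM (prior count 2) after removing age and preparation means, with limma 3.58.1 (trend) over all genes and 100000 permutations within age. The edgeR test, the limma fit and the correlation of the same gene in both tissues were first tried on simulated data. The permutation test, DESeq2 and voom were not. Alternatives were RLE factors, DESeq2 1.42.0, limma voom, no filter, single preparations, fewer libraries and a replicate block.

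Genes named are the 5 most alike at a mean of at least 1 CPM, the 3 with the smallest p in the other tissue, up to 4 per list, and preset receptors, neutrophil markers, Saa genes and Hp. The genes set beside single mice were chosen after their values were seen. The summed level of the red blood cell list is not reported here. The 4 genes, the lists and the tests were chosen with earlier results of these data known. The labels name each mouse by age and number, so brain and liver of one mouse share both, and the number pairs nothing across ages. No 2 libraries agreed within sampling noise.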

Additional observations from a re-analysis of the deposited data

How the results depend on the processing

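In brain the 28-against-3 difference of Lcn2 was 2.12 in preparation 2 alone and 4.48 in preparation 3, and its 24-against-15 difference was 4.34 in preparation 3. Other brain differences in those 2 comparisons moved by less than the spread between mice. In liver, calls were lost for Lrg1 at 24 against 15 months (voom 0.40, preparations 1 to 3 alone 1.34, 0.93 and 0.94) and at 28 against 3 (preparation 1 0.29, preparation 2 1.06), for S100a8, S100a9 and Lcn2 at 24 against 15 in preparation 1 (2.96, 2.70 and 5.64), for Lcn2 at 28 against 3 in preparation 2 (2.98), and at 24 against 3 for Lcn2 in preparation 2 (3.37) and Lrg1 in preparations 1 and 2 (0.83 and 0.92). Leaving out each liver gave 3.10 to 4.24 (S100a8), 2.98 to 4.08 (S100a9), 3.76 to 5.33 (Lcn2) and 0.73 to 1.13 (Lrg1) at 28 against 3, and 2.76 to 3.29, 2.56 to 3.04, 4.62 to 5.37 and 0.81 to 1.14 at 24 against 15 months, and all stayed called.

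Signs turned at 28 against 24 months for Lrg1 (RLE 6.6e-05, DESeq2 0.00018, voom 0.50, preparation 2 0.14, preparation 3 0.39), S100a8 (voom 0.83, preparation 2 0.29), S100a9 (voom 0.87, preparation 2 0.46) and Lcn2 (voom 1.97, preparation 3 0.57). They also turned for Lcn2 at 9 against 3 (voom 0.28) and 15 against 3 (voom 1.17, preparation 3 1.12), Lrg1 at 15 against 3 (voom 0.14) and 15 against 9 (preparation 1 -0.031), and S100a8 and S100a9 at 9 against 3 (preparation 2 -0.41 and -0.42). The cause was not tested.

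With the replicate number as a block, Lcn2 gave 0.68 at 15 against 3 and 0.22 at 28 against 24 months, and Lrg1 0.048 at 28 against 24, each turned in sign and uncalled, and no call of the 4 genes changed. The numbers do not pair mice across ages: the median correlation of same-numbered libraries was 0.093 in brain (15 numbers, 0 best with their own) and 0.018 in liver (16 numbers, 1 best with its own). The block took the liver calls at 28 against 24 months from 2385 to 2140.

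Brain-liver correlations lost their unadjusted p under 0.05 or turned for S100a8 (preparation 1 0.29, preparation 2 0.011, 28 months -0.13), S100a9 (0.35, -0.0054 and -0.094) and Lcn2 at 28 months (0.46). Within brain they did so for S100a8 with Lcn2 (preparation 2 0.27), S100a8 with Lrg1 (without the 2 farthest mice 0.19, without the 28-month brain 15 0.23, preparation 1 0.31, preparation 2 -0.059, 28 months 0.098), S100a9 with Lcn2 (preparation 2 0.27, 28 months 0.44), S100a9 with Lrg1 (0.38, -0.034 and -0.025 in preparation 1, preparation 2 and 28 months) and Lcn2 with Lrg1 (28 months 0.39), and within liver at 28 months for S100a8 and S100a9 with Lrg1 (0.14 and 0.18). Without the 28-month brain 15, 4 other S100 genes were called in place of 7, DESeq2 called 2 brain receptors lower in place of 1, and without the 28-month liver 3, 2 liver red blood cell genes were called higher in place of 4. With only the 2 ages compared, brain Lcn2 gave no value for 9 against 3, 15 against 3 and 15 against 9 months, since it was filtered out. Alternatives on single libraries were chosen after seeing the data.

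Brain levels near 1 CPM rest on few counts, so a zero or low count limits what can be seen there. Single preparations hold fewer mice, and some of their differences were also smaller. Differences in cell makeup, blood content and health could not be separated with bulk RNA.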
